A study of Homo sapiens with 24 samples.

Results

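The alcohol, aldehyde and retinol dehydrogenases of HepaRG cells were followed through 48 h of reprogramming. The set comprised ADH1A, ADH1B, ADH1C, ADH4, ADH5, ADH6, ALDH1A1, ALDH2, RDH16 and DHRS9, and its members were the probe sets annotated to one of these symbols alone. They numbered 13, out of 22215 after control probe sets were set aside, and they covered 9 of the 10 genes. No probe set carried the symbol ADH4 alone, so ADH4 was not analysed here. HepaRG cells are an established human hepatoma line. Kept confluent with DMSO, they mature into a mixed culture of hepatocyte-like and biliary-like cells. In every group the cells had been grown in medium with hydrocortisone and insulin, had then been kept with DMSO, and the hepatocyte-like cells had been lifted by gentle trypsin treatment and seeded sparsely. The groups differed by the time of collection, which was 0 h (the start) or 1 and 4 h, 8 and 12 h, 16 and 24 h or 48 h later, with 3 arrays at each of these 8 times and 24 in all. A single cell line was used, and its cells change type in culture. In such bulk samples, fewer cells of a type and less RNA per cell cannot be told apart.

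Alcohol dehydrogenases are zinc enzymes of the cytosol that oxidise alcohols to aldehydes with NAD. Aldehyde dehydrogenases carry the aldehyde on to the acid, so ethanol becomes acetaldehyde and then acetate. Retinol follows the same pair of steps to retinaldehyde and retinoic acid, with short-chain dehydrogenases as further enzymes of the first step. The liver holds most of the body's ethanol-oxidising capacity and most of its retinol stores.

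Between 0 h and 48 h, ADH1A, ADH1B, ADH1C, ADH6, ALDH2 and RDH16 fell, ADH5 and ALDH1A1 differed from their start by less than 2-fold at 48 h, and DHRS9 rose at 4 h (30.3-fold) and at 48 h overlapped its starting range. A change was called where limma's adjusted p, over all 17122 tested probe sets, was under 0.05 and the difference was at least 2-fold. All 13 members passed the filter on dim probe sets. At 1 h, 0 of 13 members were called, where 2.53% of all tested probe sets were. At 4 h, 3 members were lower and 1 was higher, where 6.38% of tested probe sets were lower, 7.13% were higher and 13.5% were called in either direction. From 8 h to 24 h, 9 members were lower and 1 was higher at each time. The shares of tested probe sets that were lower at those times were 9.31%, 9.48%, 11.1% and 10.8%, the shares that were higher 8.02%, 8.46%, 8.52% and 9.26%, and the shares called either way 17.3%, 17.9%, 19.6% and 20.1%. At 48 h, 9 members were lower and 0 were higher, where 11% of tested probe sets were lower, 9.23% were higher and 20.2% were called either way. Counted by gene through the brightest probe set, 6 of 9 genes were lower at 48 h, where 11.6% of all genes were.

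The 13 members had a median log2 change of 0.05 after 1 h. It went on to -0.53 (4 h), -1.37 (8 h), -1.90 (12 h), -2.55 (16 h), -3.55 (24 h) and -3.82 (48 h). Over all tested probe sets the median at 48 h was -0.12. Changes are differences of log2(signal + 18), which understate the change of dim probe sets. In a moderated F-test over the 7 comparisons with 0 h, each of the 13 members had an adjusted p of 7.6e-05 or lower, and 53.6% of all tested probe sets passed that test. At 48 h, 10 of the 13 members had 3 signals that all lay outside the range of the 3 signals at 0 h. The share of all tested probe sets that did so is not given here, so this count is not read as particular to the members.

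**Figure D1:**
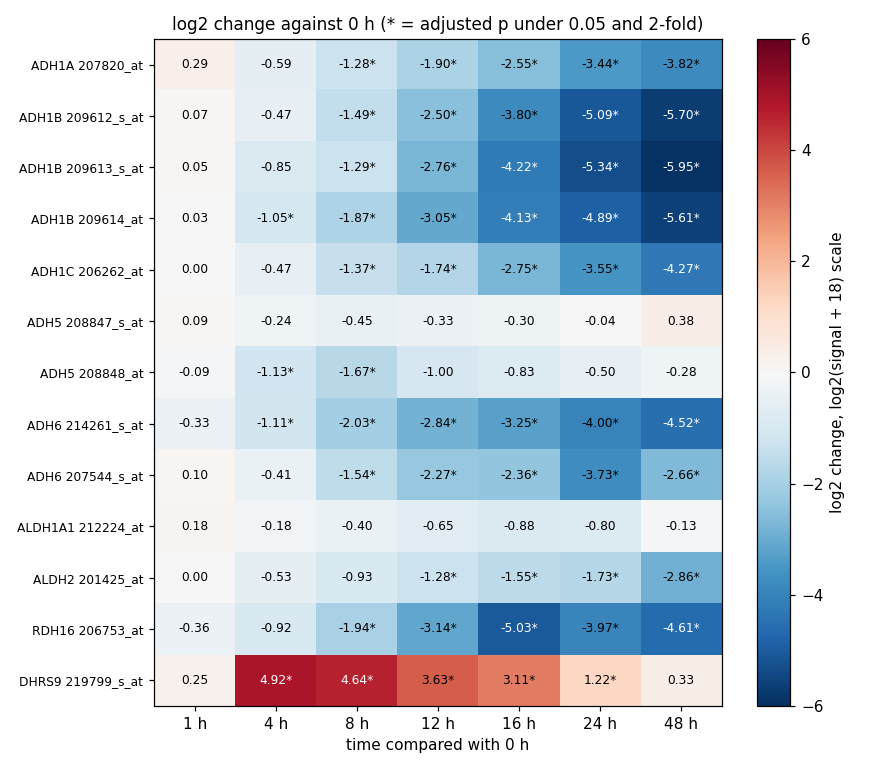
Log2 change of each of the 13 probe sets at 7 times against 0 h, with blue for lower, red for higher and an asterisk for a called change. The ADH1A, ADH1B, ADH1C, ADH6, ALDH2 and RDH16 rows lie between -2.66 and -5.95 at 48 h, with RDH16 lowest at 16 h (-5.03) and ADH6 207544_s_at at 24 h (-3.73), and the DHRS9 row reads 4.92 at 4 h and 4.64 at 8 h.

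Some properties of the arrays moved with time. The ratio of 3' to 5' signal of the ACTB control probe sets, which is higher for degraded RNA, was 2.03, 6.91 and 2.56 on the 0 h arrays and 1.02 to 1.27 at 48 h. Without 0 h replicate 2, which had the 6.91, the members called at 4 h were 1 (DHRS9) in place of 4, and those at 48 h were again 9. The summed signal of 11 hepatocyte markers was 394319 to 434516 at 0 h and 121135 to 135727 at 48 h, and all 11 markers were called lower at 48 h. Of 10 biliary markers listed, 4 were tested, and their sum was 4628 to 5119 at 0 h and 16076 to 20368 at 48 h, with 2 called higher (KRT7 and KRT19). Most of that sum was KRT19, with means of 3357 at 0 h and 16145 at 48 h. SOX9 (log2 change -0.42) and SPP1 (0.87) were not called. Stellate and fibroblast markers, 8 of 8 tested, summed to 1811 to 2337 at 0 h and 3819 to 5054 at 48 h, endothelial markers, 3 of 6 tested, to 388 to 603 and 83 to 154, and macrophage and leukocyte markers, 2 of 7 tested, to 454 to 609 and 212 to 292. Among the stellate and fibroblast markers 3 were called higher at 48 h (DCN, LUM and ACTA2), while COL1A1, COL1A2, COL3A1, PDGFRB and DES were not called. EPCAM of duct cells, VWF and CDH5 of endothelium and PTPRC of leukocytes were on the array and did not pass the filter. HNF4A, a defining hepatocyte factor, and CD68, a macrophage marker, had no probe set with that symbol alone. The part of RNA quality and of these markers in the results was not tested. Centring each array on its median moved the median of all tested probe sets at 48 h from -0.12 to 0.141 and the share of called probe sets that were higher from 45.6% to 66.7%, and again 9 members were called, all lower. Over the times from 4 h to 24 h that share was 43.4% to 52.8% as deposited and 62.2% to 68.1% after centring.

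The class I enzymes ADH1A, ADH1B and ADH1C are the main hepatic oxidisers of ethanol. Their genes lie next to one another and their transcripts are closely alike, so a probe set named for one may also read another, above all those whose name ends in _s_at, which marks probe sets shared by similar transcripts. All 5 class I probe sets were called lower from 8 h on. The 3 upstream regions are shown because the probe sets named for these genes moved in parallel. Each is the 250 bases before the RefSeq start on GRCh38.p14, read 5′ to 3′ along the gene, with capitals for matches to GGGTGTGG (a CACCC-type box read from the other strand), CACGTG (an E-box) and AATAAATA (an AT-rich box).
ADH1A (chr4:99290986-99291235, minus strand): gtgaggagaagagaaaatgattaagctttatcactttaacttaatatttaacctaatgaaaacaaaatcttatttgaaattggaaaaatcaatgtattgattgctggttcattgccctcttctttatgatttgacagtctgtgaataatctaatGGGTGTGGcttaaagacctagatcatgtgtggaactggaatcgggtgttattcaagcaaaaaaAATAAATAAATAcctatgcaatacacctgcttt
ADH1B (chr4:99321402-99321651, minus strand): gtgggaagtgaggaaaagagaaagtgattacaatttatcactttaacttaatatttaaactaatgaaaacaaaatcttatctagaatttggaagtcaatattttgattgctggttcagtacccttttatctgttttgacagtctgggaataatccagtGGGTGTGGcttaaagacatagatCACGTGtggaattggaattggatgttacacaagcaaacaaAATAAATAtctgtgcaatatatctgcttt
ADH1C (chr4:99352747-99352996, minus strand): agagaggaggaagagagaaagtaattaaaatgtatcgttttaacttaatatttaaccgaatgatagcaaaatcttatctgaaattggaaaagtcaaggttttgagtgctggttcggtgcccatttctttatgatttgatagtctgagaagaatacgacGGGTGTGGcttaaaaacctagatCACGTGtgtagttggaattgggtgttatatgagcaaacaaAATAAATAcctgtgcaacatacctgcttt

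RefSeq windows of 300 bases, from 250 before to 50 after a start, were found for 9 of the 10 members by symbol, ALDH2 not among them. Aligned end to end, the class I windows were identical at 82.5% of columns for ADH1A and ADH1B, 82.9% for ADH1A and ADH1C and 82.3% for ADH1B and ADH1C. The same comparison of ADH5 with the class I windows gave 44.3% to 46%. That of ADH6, which also fell, gave 48.4% to 51.4%. Searched on both strands, GGGTGTGG matched in all 3 class I windows, at -96 in ADH1A and -92 in ADH1B and ADH1C, counted from the start, and in 3.28% of all 35116 windows. CACGTG matched at -69 in ADH1B and ADH1C but not in the ADH1A window, and in 7.26% of all windows. AATAAATA matched once in ADH1B and ADH1C, at -29, and at -33 and -29 in ADH1A, where both matches share bases, and in 2.05% of all windows. It also matched once each in the windows of ADH4 and RDH16. None of GGGTGTGG, CACGTG and AATAAATA matched in the window of ADH6. The class I windows are closely alike, so their matches are not independent of one another. The shares over all windows are given for reference, and enrichment was not tested. Such a match describes letters and shows no binding.

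ADH1B gave 3 probe sets. On 209612_s_at the signals were 16257, 13714 and 14600 at 0 h, 9826, 12170 and 10179 at 4 h, 1070, 889 and 1206 at 16 h, and 169, 235 and 476 at 48 h. The 3 signals at each of these later times lay below all 3 at 0 h. The 48 h mean, 293 ± 162, was 1.98% of the 0 h mean, 14857 ± 1291 (SD, n = 3). On the log2 scale the change was -5.70 ± 0.27 (SE, adjusted p = 5.4e-18). The other ADH1B probe sets fell as well, with changes at 48 h of -5.95 ± 0.29 on 209613_s_at and -5.61 ± 0.40 on 209614_at. On 209614_at the 48 h signals were 4.02, 39.2 and 41.2, at the dim end of the array, where the order of signals carries little. The time at which the mean crossed 50% of its 0 h value, by straight lines between times, was 6.44 h, 5.6 h and 3.85 h on the 3 probe sets.

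ADH1B had no called change from 0 h to 1 h on any probe set, with log2 changes of 0.03 to 0.07. The call at 4 h on 209614_at (log2 change -1.05 ± 0.40, adjusted p = 0.048) was lost when any 1 of the 6 arrays compared was left out (-0.94 to -1.18), and with median centring (-0.92). From 8 h on every ADH1B probe set was lower than at 0 h. Between neighbouring times, 209612_s_at changed by -1.01 ± 0.27 from 4 h to 8 h (adjusted p = 0.014), -1.30 ± 0.27 from 12 h to 16 h (adjusted p = 0.014) and -1.29 ± 0.27 from 16 h to 24 h (adjusted p = 0.0034). On 209613_s_at the steps from 8 h to 12 h (-1.47 ± 0.29), 12 h to 16 h (-1.45 ± 0.29) and 16 h to 24 h (-1.13 ± 0.29) were called. From 24 h to 48 h no ADH1B probe set had a called step. Those last steps depend on 24 h replicate 1, whose signals on these probe sets (201, 83.9 and 5.86) were the lowest of the 3 arrays. Without it the 24 h to 48 h changes were -1.11, -1.18 and -1.48 and were called, and the calls from 16 h to 24 h were lost, at -0.79 on 209612_s_at and -0.55 on 209613_s_at. On 209612_s_at the step from 24 h to 48 h was also called without 48 h replicate 3 (-1.01). The call from 4 h to 8 h on 209612_s_at was lost without 4 h replicate 2 (-0.92) or 8 h replicate 1 (-0.88). That from 8 h to 12 h on 209613_s_at was lost without 12 h replicate 2 (-1.39). The calls from 12 h to 16 h were lost on 209612_s_at without any of the 12 h arrays or 16 h replicate 2 (-1.18 to -1.33), and on 209613_s_at without 12 h replicate 3 (-1.29) or 16 h replicate 3 (-1.32). On 209613_s_at that from 16 h to 24 h was also lost without 16 h replicate 1 (-1.15) or 2 (-0.97).

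ADH1A was read by 207820_at alone. Its signals were 966, 917 and 894 at 0 h, 1093, 1282 and 1051 at 1 h, 157, 164 and 113 at 16 h, and 28.4, 64.8 and 59.4 at 48 h. At 1 h all 3 signals lay above the 0 h range, and the difference of 0.29 ± 0.24 had an adjusted p of 0.63. At 48 h the signal was 5.5% of its start, a log2 change of -3.82 ± 0.24 (adjusted p = 1.5e-14), and the groups did not overlap. Its steps between neighbouring times were each under 2-fold, the largest being -0.89 from 16 h to 24 h (adjusted p = 0.037) and -0.88 from 1 h to 4 h (adjusted p = 0.0079). Without 16 h replicate 3 or 4 h replicate 1, both of these were -1.04 and called.

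ADH1C, on 206262_at, had signals of 774, 731 and 515 at 0 h, 384, 517 and 538 at 4 h, and 3.22, 32.3 and 23.4 at 48 h. The 4 h and 0 h signals overlapped, and the 4 h difference of -0.47 ± 0.39 had an adjusted p of 0.43. The change was -1.37 ± 0.39 at 8 h (adjusted p = 0.0067) and -4.27 ± 0.39 at 48 h (adjusted p = 1.3e-10). The 8 h call was lost with no added constant (-1.44). At 24 h the arrays disagreed, with 15.2, 137 and 19.9, and without the array at 137 the step from 16 h to 24 h was called (-1.51). With all arrays, no neighbours in the order of its levels differed beyond the spread.

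**Figure D2:**
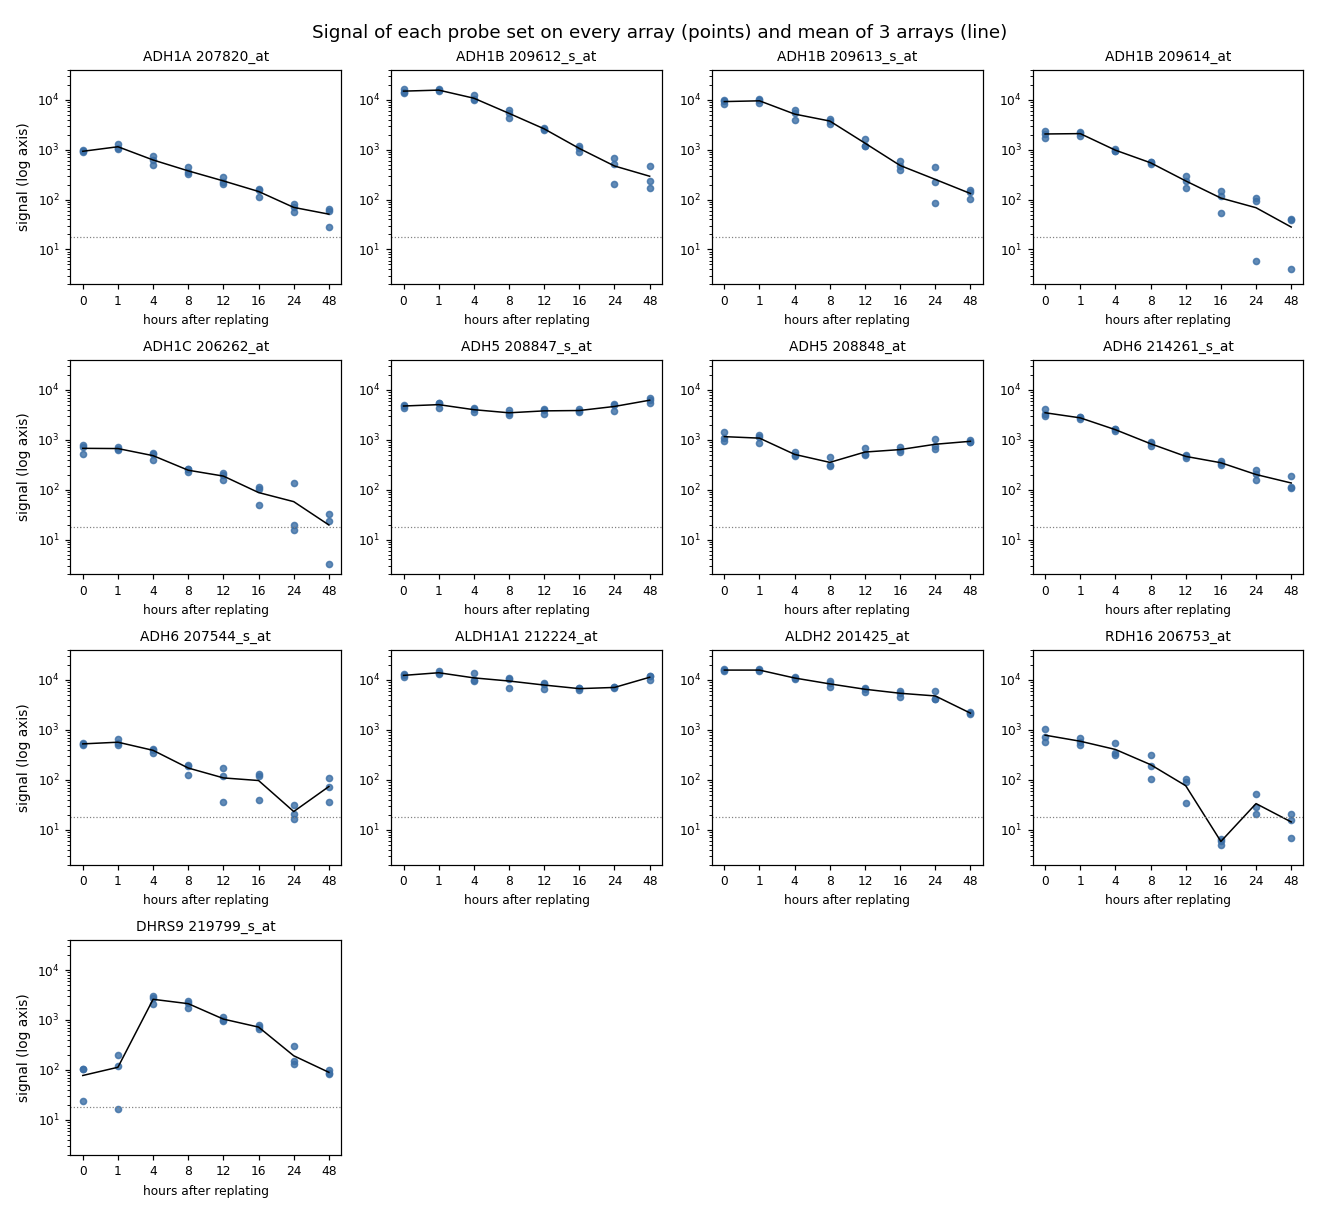
Signal of each probe set on all 24 arrays (points, log axis) with the mean of the 3 arrays at each time (line), the times being spaced evenly and the dotted line marking a signal of 18. The 3 ADH1B panels drop from means of 14857, 9175 and 2058 at 0 h to 293, 132 and 28.1 at 48 h. The means of the upper ADH5 panel stay between 3467 and 6195, and those of the ALDH1A1 panel between 6704 and 13955.

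ADH6 encodes the class V enzyme, whose substrates in the body are little known. Its brighter probe set 214261_s_at read 3314, 4131 and 2979 at 0 h, 1468, 1624 and 1678 at 4 h, and 114, 108 and 187 at 48 h. The 4 h signals already lay below the 0 h range, and the change of -1.11 ± 0.18 had an adjusted p of 1.5e-05. Without 0 h replicate 2 that change was -0.98, and with median centring -0.97, both just under 2-fold. By 48 h it was -4.52 ± 0.18 (adjusted p = 9.4e-20), or 3.93% of the start. The 50% crossing came at 3.62 h. The second probe set 207544_s_at was lower from 8 h (-1.54 ± 0.38) and lowest at 24 h, with signals of 16.7, 20.8 and 31.9. At 48 h it read 72.7, 35.7 and 111, a change of -2.66 ± 0.38 from 0 h, and the difference between 24 h and 48 h of 1.08 had an adjusted p of 0.14.

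ADH5, the class III enzyme, clears formaldehyde bound to glutathione and is made in nearly every cell. Its upstream region is shown for contrast with the class I genes, with capitals for matches to GGGCGG on either strand (a GC box).
ADH5 (chr4:99088789-99089038, minus strand): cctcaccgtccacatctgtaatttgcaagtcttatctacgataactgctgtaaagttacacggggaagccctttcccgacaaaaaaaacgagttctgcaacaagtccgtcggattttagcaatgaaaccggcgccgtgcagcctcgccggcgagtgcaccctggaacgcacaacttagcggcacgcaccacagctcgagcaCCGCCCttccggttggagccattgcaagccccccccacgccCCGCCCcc

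The ADH5 window held 61.3% G and C, against 35% in ADH1A and ADH1B and 38% in ADH1C. GGGCGG matched at -49 and -8, read from the other strand, and in 45% of all windows. On the brighter probe set 208847_s_at the signals were 5075, 4789 and 4361 at 0 h, 3382, 3878 and 3142 at 8 h, and 6970, 5384 and 6231 at 48 h. The lowest mean was 73.1% of the start, at 8 h, and the highest was 131%, at 48 h. All 3 signals at 48 h lay above the 0 h range, and the change of 0.38 ± 0.14 (adjusted p = 0.031) was under 2-fold and so was not called. No neighbours in the order of its 8 levels differed beyond the spread.

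The dimmer ADH5 probe set 208848_at dipped and came back. It read 947, 1437 and 1079 at 0 h, 475, 492 and 560 at 4 h, 294, 310 and 451 at 8 h, and 902, 974 and 917 at 48 h. The 4 h and 8 h signals did not overlap with those at 0 h, and the 48 h signals did. It was called lower at 4 h (-1.13 ± 0.19, adjusted p = 2.9e-05) and at 8 h (-1.67 ± 0.19, adjusted p = 2.6e-08), and was then called higher at 48 h than at 8 h (1.38 ± 0.19, adjusted p = 1.4e-06), where 5.47% of tested probe sets were higher. At 48 h it stood at 80.6% of the start (-0.28 ± 0.19, adjusted p = 0.27). Both ADH5 probe sets were lowest at 8 h, and they differed in size there, -0.45 against -1.67. That difference between probe sets of a gene was not tested. The 4 h call was lost without 0 h replicate 2 (-0.97), and the change at 12 h, -1.0, was called without 0 h replicate 1 (-1.13), 0 h replicate 3 (-1.03) or 12 h replicate 1 (-1.14).

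ADH5, ADH6, ADH1A, ADH1B and ADH1C are neighbours on chromosome 4, in that order in the RefSeq table, with ADH4 between ADH5 and ADH6. On the ADH5 side, METAP1, EIF4E, TSPAN5 and RAP1GDS1 had log2 changes at 48 h of 0.54 ± 0.17, 0.84 ± 0.18, 1.09 ± 0.22 and 0.29 ± 0.17, of which TSPAN5 was called. The next gene past ADH1C, ADH7, was on the array and did not pass the filter. Of the 4 genes beyond it, MTTP, which loads lipid onto nascent lipoproteins, was the one tested, and it fell by 3.48 ± 0.22 (adjusted p = 1.4e-14). These neighbours were chosen by position alone.

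**Figure D3:**
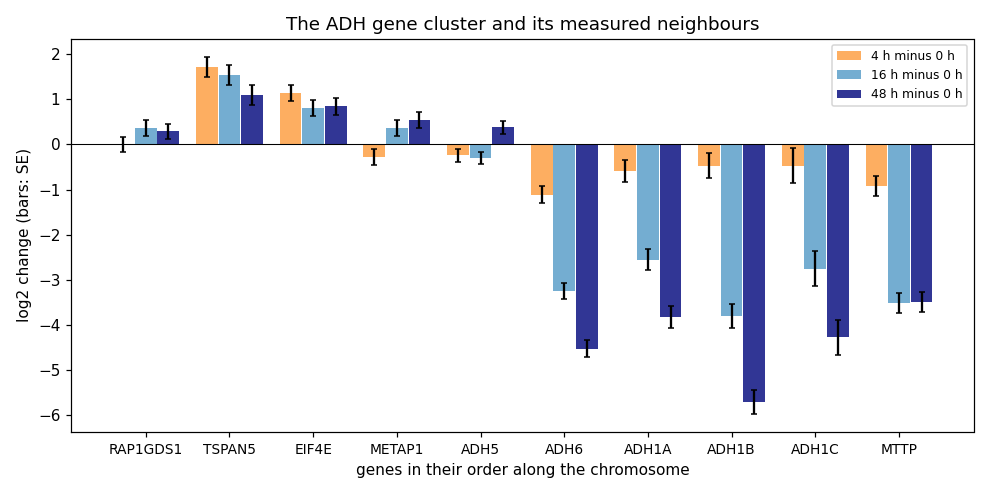
Log2 change at 4, 16 and 48 h against 0 h (bars, with SE) for the tested genes around the ADH cluster, in their order along chromosome 4 and without scale for distance. ADH6, ADH1A, ADH1B, ADH1C and MTTP lie between -3.48 and -5.70 at 48 h, and the genes from RAP1GDS1 to ADH5 between 0.29 and 1.09.

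ALDH2, the mitochondrial enzyme that oxidises acetaldehyde, fell more slowly. On 201425_at the signals were 15583, 15116 and 16623 at 0 h, 11592, 10853 and 10372 at 4 h, 4220, 4245 and 5892 at 24 h, and 2171, 2039 and 2277 at 48 h. From 4 h on no signal reached the 0 h range. The change was -0.53 ± 0.13 at 4 h and -0.93 ± 0.13 at 8 h, both under 2-fold, and -1.28 ± 0.13 at 12 h, when it was first called (adjusted p = 2.8e-09). Without 8 h replicate 3 the 8 h change was -1.01 and called. At 48 h it was -2.86 ± 0.13 (adjusted p = 4.9e-18), or 13.7% of the start, and the mean crossed 50% at 9 h. The step from 24 h to 48 h, -1.12 ± 0.13 (adjusted p = 4.4e-07), was the one step of a member called in that interval. It was -0.96 without 24 h replicate 3, which had the 5892, and was then under 2-fold.

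ALDH1A1, the cytosolic enzyme that turns retinaldehyde into retinoic acid, dipped and returned, by less than 2-fold against 0 h. On 212224_at it read 12696, 11488 and 12868 at 0 h, 6850, 6857 and 6405 at 16 h, 7296, 7199 and 6755 at 24 h, and 12229, 11990 and 9773 at 48 h. The 16 h and 24 h signals lay below every 0 h signal, and those at 48 h overlapped them. The difference from 0 h was -0.88 ± 0.15 at 16 h (adjusted p = 2e-05) and -0.13 ± 0.15 at 48 h (adjusted p = 0.55). From 16 h to 48 h the signal was higher by 0.75 ± 0.15 (adjusted p = 0.00079), also under 2-fold. Its highest mean was 113% of the start, at 1 h, and from 1 h to 16 h it fell by 1.05 ± 0.15 (adjusted p = 1e-06), which was called, where 10.6% of tested probe sets were lower. With median centring the 48 h difference was 0.13, so it has no settled sign.

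**Figure D4:**
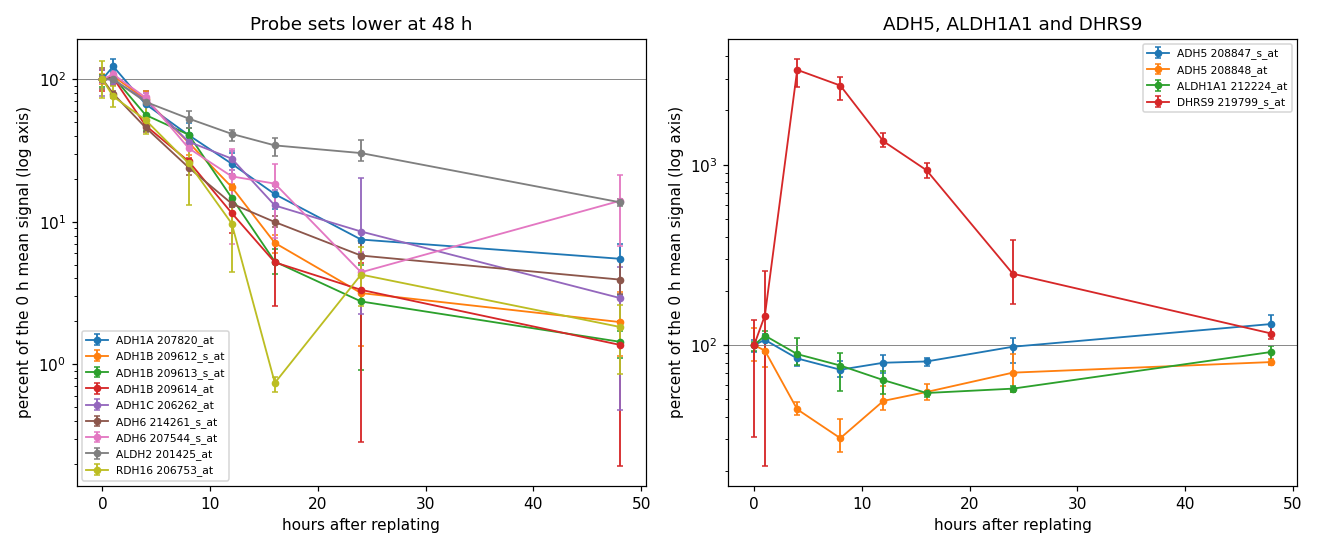
Mean signal as a percentage of the 0 h mean (log axis) against time on a linear axis, with bars from the lowest to the highest array, for the 9 probe sets called lower at 48 h (left) and the other 4 (right). At 48 h the left-hand means lie between 1.37% and 14%, and on the right DHRS9 reaches 3360% at 4 h while ADH5 and ALDH1A1 end between 80.6% and 131%.

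RDH16 is a liver retinol dehydrogenase of the short-chain family, bound to the endoplasmic reticulum. On 206753_at it read 720, 579 and 1051 at 0 h, 341, 553 and 321 at 4 h, 192, 102 and 310 at 8 h, and 6.43, 5.97 and 5.02 at 16 h. The 24 h signals were 51.8, 28 and 20.2 and those at 48 h 15.9, 6.69 and 20.4. From 4 h on all signals lay below the 0 h range. The 4 h difference of -0.92 ± 0.38 had an adjusted p of 0.073, and without 4 h replicate 2 it was -1.16 and called. The change was -1.94 ± 0.38 at 8 h (adjusted p = 0.00014), -5.03 ± 0.38 at 16 h (adjusted p = 2.3e-12) and -4.61 ± 0.38 at 48 h (adjusted p = 1.1e-11). Signals at 16 h were all under the added 18. The 24 h minus 16 h difference was 1.06 in the fit and 2.42 with no added constant, where it was called, so its size depends on that constant.

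DHRS9, a short-chain dehydrogenase that acts on retinol and on hydroxysteroids, was the one member called higher than at 0 h at any time. On 219799_s_at it read 106, 23.8 and 102 at 0 h, 200, 16.6 and 122 at 1 h, 2724, 2973 and 2097 at 4 h, and 2236, 1759 and 2378 at 8 h. It then read 996, 1162 and 967 at 12 h, 724, 652 and 787 at 16 h, 131, 151 and 296 at 24 h, and 99.6, 83.1 and 85.6 at 48 h. From 4 h to 24 h every signal lay above all 3 at 0 h, and those at 1 h and 48 h overlapped the 0 h range. The mean went from 77.3 ± 46.3 at the start to 2598 ± 451 after 4 h (SD, n = 3). The log2 change was 4.92 ± 0.40 with an adjusted p of 1.9e-11. Without 0 h replicate 2, the array with the 23.8, that change was 4.41.

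The rise lay between 1 h and 4 h, where the step was 4.67 ± 0.40 (adjusted p = 1.3e-10). From 4 h to 8 h the signals overlapped, and the difference of -0.28 ± 0.40 had an adjusted p of 0.77, so the highest time is not told apart from its neighbour. DHRS9 was still higher than at 0 h at 8 h (4.64 ± 0.40), 12 h (3.63 ± 0.40) and 16 h (3.11 ± 0.40). From 16 h to 24 h it changed by -1.89 ± 0.40 (adjusted p = 0.0044), and by 48 h it had changed by -4.59 ± 0.40 from its level at 4 h (adjusted p = 6e-11), where 8.4% of tested probe sets were lower. The call at 24 h (1.22 ± 0.40, adjusted p = 0.017) was lost without 0 h replicate 2 (0.70) or without 24 h replicate 3 (0.89), with the larger added constant (0.82), and in a fit of those 2 times alone. RefSeq lists 4 start sites for DHRS9, and these data do not tell which was used. The 250 bases before one of them are shown because it is the one of the 4 windows with a match to TGANTCA, the AP-1 motif bound by FOS and JUN proteins, in capitals.
DHRS9 (chr2:169069313-169069562, plus strand): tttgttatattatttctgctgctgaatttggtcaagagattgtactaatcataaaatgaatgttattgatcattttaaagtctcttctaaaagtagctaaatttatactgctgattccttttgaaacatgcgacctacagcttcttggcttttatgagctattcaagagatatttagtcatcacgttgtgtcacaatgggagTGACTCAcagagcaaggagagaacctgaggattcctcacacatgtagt

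TGANTCA matched there at -48 and in 7.71% of all 35116 windows, and it matched in none of the other members' windows. That share counts single windows. DHRS9 had 4 windows to search and each other member with a window had 1, so a match was likelier for DHRS9 from the start. This match, too, describes letters and shows no binding. The missing matches say only that those letters are not in these windows.

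The first time at which a member was called lower was 4 h for ADH6 214261_s_at, ADH1B 209614_at and ADH5 208848_at, 8 h for ADH1A, ADH1C, RDH16 and the other ADH1B and ADH6 probe sets, and 12 h for ALDH2. Few steps between neighbours were called: 0 from 0 h to 1 h, 2 from 1 h to 4 h (DHRS9 higher, ADH5 208848_at lower), 1 from 4 h to 8 h, 1 from 8 h to 12 h, 3 from 12 h to 16 h, 4 from 16 h to 24 h and 1 from 24 h to 48 h. All of the steps called after 4 h were downward. From 1 h to 4 h, 5.75% of tested probe sets were higher and 4.02% lower (9.77% either way). From 4 h to 8 h 0.993% were higher and 1.56% lower (2.55%), from 8 h to 12 h 0.234% and 0.128% (0.362%), and from 12 h to 16 h 0.0818% and 0.123% (0.204%). From 16 h to 24 h 0.672% were higher and 0.479% lower (1.15%), and from 24 h to 48 h 0.327% and 0.876% (1.2%). Several called steps rest on single arrays or on the settings. The ADH5 208848_at step from 1 h to 4 h (-1.04 ± 0.19) was lost without 1 h replicate 3 (-0.94) or 4 h replicate 1 (-1.0), with the larger added constant (-0.97) and with median centring (-0.96). The RDH16 step from 12 h to 16 h (-1.89 ± 0.38) was lost without 12 h replicate 2 (-1.66) or 3 (-1.76) or 16 h replicate 3 (-1.87), and with the larger added constant it was -0.88 and not called. The ADH6 207544_s_at step from 16 h to 24 h (-1.38 ± 0.38) was lost without 16 h replicate 1 (-1.20) or 2 (-1.13) or any of the 24 h arrays (-1.26 to -1.53), with the larger added constant (-0.77) and with no filter. With only the 2 times compared in the fit, this RDH16 step and the ADH1B and ADH6 steps from 16 h to 24 h were not called.

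Over the 24 arrays, the 9 probe sets called lower at 48 h had Pearson correlations with one another of 0.81 to 0.99 in 36 pairs. Their correlations with the ADH5 probe sets were -0.34 to 0.16, with DHRS9 -0.05 to 0.14 and with ALDH1A1 0.44 to 0.72. DHRS9 and the ADH5 probe sets ran opposite to each other, with -0.74 and -0.84. The 9 probe sets were grouped by their fall in these same arrays, so high values among them follow from that choice. Some pairs are probe sets of the same gene, or class I probe sets that may read one another. The arrays are 3 for each of 8 times and the probe sets share arrays, so these values only describe the courses.

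For the 7 member genes whose brightest probe set was called against 0 h at any time, similar genes were sought among 9957 others. Those whose course was most like that of a member were named by the highest correlation over the 24 arrays. For ADH1B they were AQP9 (0.988), a glycerol channel, HAO1 (0.986), a peroxisomal glycolate oxidase, and FGA (0.986), the fibrinogen alpha chain. For ADH6 they were C3 (0.989), KHK (0.988) and C6 (0.987), which encode complement proteins and ketohexokinase, and for ALDH2 F2 (0.988), CFB (0.988) and F9 (0.986), of coagulation and complement. ADH1A was closest to UGT2B4 (0.982), HAO1 (0.980) and KHK (0.979), and ADH1C to AQP9 (0.965), FGB (0.960) and HAO2 (0.959). RDH16 was closest to MAT1A (0.958), BHMT2 (0.953) and SLC47A1 (0.950). DHRS9 was closest to the metallothionein genes MT1F (0.939) and MT1E (0.938), each read by a probe set ending in _x_at and open to cross-hybridization, and to TNIP2 (0.933), an inhibitor of NF-kappaB signalling. At 4 h MT1F, MT1E and TNIP2 rose by 2.02, 1.56 and 1.30 on the log2 scale, and at 48 h they differed from 0 h by 0.24, 0.37 and 0.21, none of them called.

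Other genes of alcohol, aldehyde and retinoid metabolism were counted over 5 lists of 82 genes, of which 61 were tested. Each gene was represented by its brightest probe set. At 48 h, 23 of the 61 were lower and 3 were higher, where 11.6% of all 9966 genes were lower, 9.83% were higher and 21.5% were called either way. Their median log2 change was -0.72, and that of all genes was -0.118.

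Of 14 other ADH and ALDH genes tested, 5 were lower and 1 was higher at 48 h. Among all genes, 11.6% were lower and 9.83% were higher at that time. At 16 h 6 of the 14 were lower, when 11.8% of all genes were. ALDH1L1, which oxidises formyltetrahydrofolate, fell by 4.12 ± 0.16 from a mean of 4463 to 238 (adjusted p = 2.1e-20), and its other probe set changed by -0.67. ALDH6A1, of valine breakdown, fell by 3.60 ± 0.16, while 1 of its 4 other probe sets changed by -0.55. ALDH5A1, of GABA breakdown, fell by 2.70 ± 0.27, and its other probe set changed by -1.55. ALDH8A1 fell by 2.61 ± 0.33. ALDH3A1, an aldehyde dehydrogenase of drug and lipid aldehydes, was named after its values were seen. It rose at 48 h by 2.19 ± 0.30 (adjusted p = 3.5e-07), from 249 ± 136 to 1058 ± 67.1 (SD, n = 3), and was 0.51 ± 0.30 above 0 h at 24 h (adjusted p = 0.19).

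Of 16 other retinol and short-chain dehydrogenases tested, 7 were lower and 1 was higher at 48 h. The shares of all genes were 11.6% lower and 9.83% higher. HSD17B6 fell by 4.73 ± 0.15 (adjusted p = 4.2e-22), from a mean of 12081 to 447. BDH1, of ketone body metabolism, fell by 4.37 ± 0.31, DCXR, which reduces xylulose, fell by 2.93 ± 0.16, and HSD11B1, which regenerates cortisol, fell by 2.42 ± 0.13. CBR3 and HSD17B2 were named after their values were seen. CBR3, a carbonyl reductase, was the one higher at 48 h (1.65 ± 0.24), with 2.16 ± 0.24 at 24 h. HSD17B2, which oxidises estradiol and testosterone, was called higher at 1 h already (1.53 ± 0.18, adjusted p = 2.5e-07), stood at 1.96 ± 0.18 at 4 h and differed from 0 h by 0.19 ± 0.18 at 48 h (adjusted p = 0.45).

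Of 17 retinoid carriers, receptors and turnover genes tested, 5 were lower and 1 was higher at 48 h. The shares of all genes were 11.6% lower and 9.83% higher. TTR, which carries the retinol-binding protein in plasma, fell by 1.67 ± 0.12 from a mean of 73038 to 22958 (adjusted p = 5.4e-13). CYP26A1, which degrades retinoic acid, fell by 1.81 ± 0.55 (adjusted p = 0.01) and the receptor RXRG fell by 1.76 ± 0.61 (adjusted p = 0.022), both dim, with means of 96.7 and 83.1 at 0 h and, under the added 18, of 15.1 and 7.41 at 48 h. FABP5, a carrier of fatty acids and retinoic acid, was the one called higher. Its mean at 0 h, 8.34, lay under the added 18, and its means were above 73.8, the 40th percentile of all signals, only at 24 h (90.2) and 48 h (118), so it was tested through the times at which it is high and no size of change is given. CYP26B1, which also degrades retinoic acid and was named after its values were seen, was called higher at 16 h (1.53 ± 0.58, adjusted p = 0.037) and 24 h (1.52 ± 0.58, adjusted p = 0.039). Its mean at 0 h was 71.5 ± 106 (SD, n = 3), the groups overlapped at both times, and at 48 h the difference was 1.19 ± 0.58 (adjusted p = 0.11). The CYP26B1 means were 24.4 at 1 h and 49.3 at 4 h and above 73.8 from 8 h on. It was thus tested mainly through the times at which it is high, which limits both calls.

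Of 8 aldo-keto reductases tested, 3 were lower and 0 were higher at 48 h. The shares of all genes were 11.6% lower and 9.83% higher. AKR1D1, of bile acid synthesis, fell by 2.56 ± 0.50, AKR1C4 fell by 2.01 ± 0.24 and AKR7A3 fell by 1.81 ± 0.13, the last on a probe set ending in _x_at. The AKR1C genes are close copies of one another, so AKR1C4 is uncertain. Of 6 other enzymes of ethanol and acetate tested, 4 were lower and 0 were higher at 24 h, when 11.2% of all genes were lower. CYP2E1, the microsomal ethanol oxidase, fell by 3.90 ± 0.25 at 24 h (adjusted p = 1.6e-14), from a mean of 9348 to 610, and fell by 7.43 ± 0.25 at 48 h, to 45.5. At 24 h ACSM3, an acyl-CoA synthetase, fell by 2.07 ± 0.24, CAT (catalase) fell by 1.79 ± 0.14 and GOT1, of the malate-aspartate shuttle, fell by 1.19 ± 0.12.

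**Figure D5:**
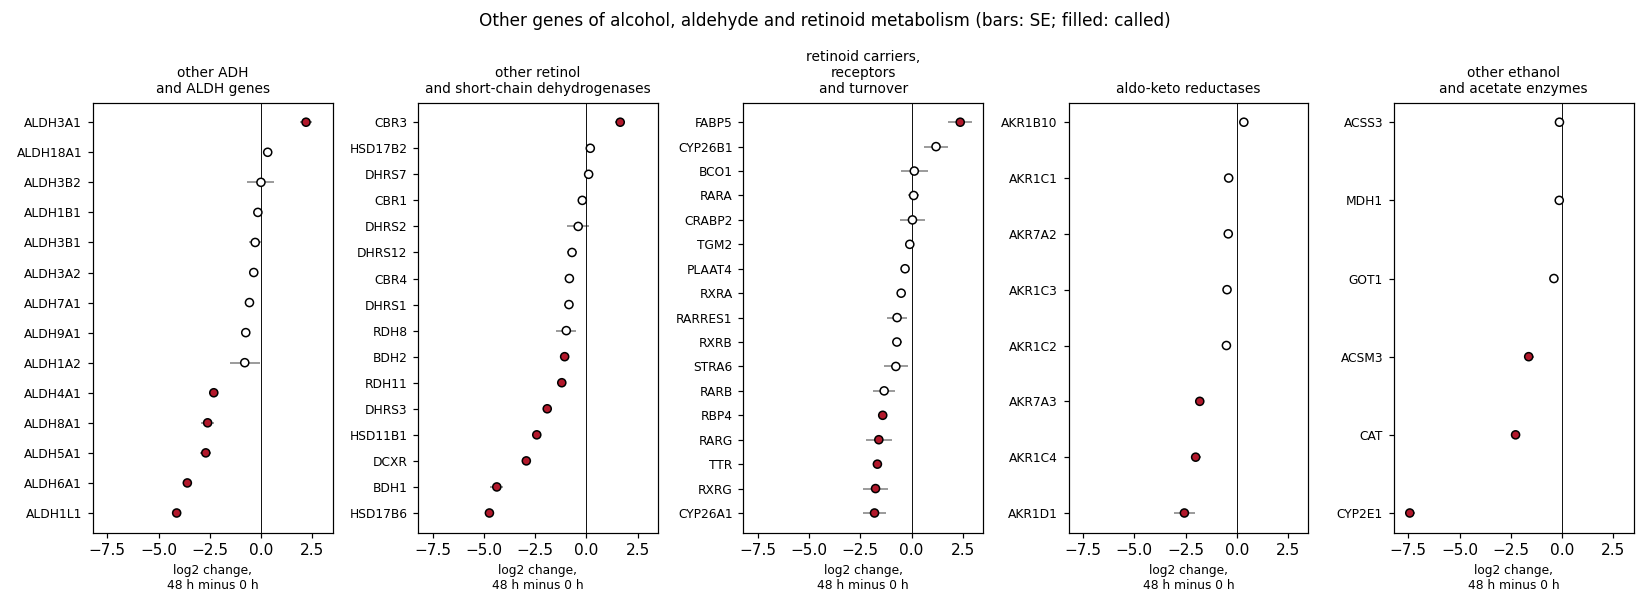
Log2 change at 48 h against 0 h (points, with SE) of the 61 tested genes of 5 lists, filled where called. Of the filled points 23 lie left of 0 and 3 right of it, with CYP2E1 at -7.43 the farthest left. The FABP5 point starts from a 0 h mean under the added 18.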

How the data were processed

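RNA of HepaRG cells from 24 samples, 3 at each of 8 times, was hybridised as biotinylated cRNA to 1-colour Affymetrix human arrays. The table has 22283 probe sets, of which 68 are controls. The deposited values are linear intensity signals made with MAS5, per the submitters' processing notes. The scaling target is not given in the sources used here. The mean without the lowest and highest 2% of signals was 500.2 or 500.3 on every array, so arrays had been brought to a common level. Groups follow the time each label gives. Whether replicates were separate cultures is not stated, so p-values measure only a spread among samples that may be technical. The number of arrays limits the precision. No 2 arrays were identical. Same-numbered replicates did not deviate together: the correlations were -0.05 to 0.07 over 28 pairs of times.

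Signals entered limma 3.58.1 in R 4.3.3 as log2(signal + 18), 18 being their 20th percentile. Probe sets with 3 or more arrays above the array's own 40th percentile were tested (17122 probe sets, 9966 genes). One fit over all 24 arrays (16 residual degrees of freedom, trended eBayes) gave all pairs of times, two-sided, with Benjamini-Hochberg adjustment over all tested probe sets. The fit was tested on simulated data. The annotation gave 1 symbol for 19065 probe sets, several for 1043 and none for 2107. Promoter sequences came from RefSeq (GRCh38.p14) and were aligned with Biopython, and figures were drawn with matplotlib. Named were all members, and up to 4 called genes of each list with the largest change at the time with most calls. Also named were the 3 genes most correlated with each member gene whose brightest probe set was called against 0 h. Members, lists and alternatives were chosen with earlier results of these data known. Alternatives were other added constants, normalizations, filters and samples, the replicate block, and each replicate left out.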

Additional observations from a re-analysis of the deposited data

How the results depend on the processing

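The 9 members lower at 48 h were 9 under each alternative fitted over probe sets, and 6 with 1 probe set a gene. With median centring, the members called were 2 at 4 h (4 in the fit reported) and 1 from 1 h to 4 h (2), and the list genes 3 at 4 h (5) and 6 at 8 h (11). With 1 probe set a gene, the members called were 2 at 4 h, 6 at 8 h (10), 1 from 1 h to 4 h and 2 from 16 h to 24 h (4). From 4 h to 8 h (1) the count was 0 with quantile normalization or median centring, and 2 with the stricter filter or only the times compared. From 8 h to 12 h (1) it was 2 with the larger added constant, 2 with the replicate block and 4 with only the times compared, and from 16 h to 24 h it was 2 with the larger constant and 1 with only the times compared. The block moved no other count of calls by over 1.5 times.

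Leaving out each replicate, the members called ranged from 0 to 0 at 1 h, 1 to 4 at 4 h, 10 to 11 at 8 h and 12 h, 10 to 10 at 16 h, 9 to 10 at 24 h and 9 to 9 at 48 h. The steps ranged from 1 to 3 (1 h to 4 h), 0 to 2 (4 h to 8 h), 0 to 1 (8 h to 12 h), 0 to 3 (12 h to 16 h), 1 to 5 (16 h to 24 h) and 0 to 4 (24 h to 48 h). The list genes ranged from 1 to 2, 4 to 6, 8 to 12, 12 to 16, 19 to 22, 21 to 24 and 24 to 26 over the 7 later times.

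Some uncalled log2 changes took the other sign. With median centring ADH5 208847_s_at was 0.17 at 24 h and ALDH1A1 was 0.13 at 48 h. Without single replicates, the changes at 1 h ranged from -0.04 to 0.13 (ADH1B 209613_s_at), -0.10 to 0.14 (ADH1B 209614_at), -0.22 to 0.08 (ADH5 208848_at), -0.01 to 0.17 (ADH6 207544_s_at) and -0.30 to 1.03 (DHRS9). ADH5 208847_s_at ranged from -0.13 to 0.10 at 24 h and -0.06 to 0.10 from 12 h to 16 h, ADH6 207544_s_at from -0.61 to 0.35 from 12 h to 16 h, ADH1B 209614_at from -1.18 to 0.01 from 16 h to 24 h, and DHRS9 from -0.19 to 0.60 at 48 h. The cause was not tested. Signals near or under 18 limit the late values of ADH1C, ADH1B 209614_at, ADH6 207544_s_at and RDH16.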
